A study of Mus musculus with 4 samples.

Results

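The genes described here code for the proteins of the cytoplasmic ribosome, together with their paralogs and the pseudogenes named after them. They were chosen by symbol alone, as every gene whose symbol begins with Rpl or Rps and a number, or with Rplp and a number, leaving out the Rps6k kinases. The rule found 139 of the 26130 genes that were measured in both cell lines. By class, 75 were common genes, the main gene of a ribosomal protein, of which 45 belong to the large subunit and 30 to the small subunit. Another 8 were paralogs of a common gene, 55 carried a pseudogene symbol, and 1, Rps19bp1, codes for a nucleolar protein that is no part of the ribosome. Rpl41 was not analysed here, and ribosomal protein genes with other symbols, such as Rpsa, are not members.

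The study sequenced RNA of mouse embryonic stem cells to compare mRNA levels in cells without Zfp57 with those in wild-type cells. There were 4 libraries: E14 wild type, E14 Zfp57-/-, JB1 wild type and JB1 Zfp57-/-, with 1 library for each. E14 has the strain background 129P2/OlaHsd and JB1 the background JF1/B6. All cells were kept without feeder cells on gelatin, in medium with foetal calf serum and leukemia inhibitory factor. ZFP57 is a zinc finger protein known for keeping DNA methylation at imprinted regions, and the knockouts carry no other labelled change. The sources used here name neither the deleted part of Zfp57 nor the number of clones behind each knockout line.

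Each ribosome carries a single copy of almost every ribosomal protein, and the common genes are among the most strongly transcribed genes of a growing cell. Their mRNAs begin with a tract of pyrimidines, through which mTOR signalling sets their translation. Several paralogs are restricted to a tissue: in the mouse, Rpl39l and Rpl10l are known from the testis and Rpl3l from heart and skeletal muscle. Ribosomal protein genes have also left many processed pseudogenes, whose sequence can be so close to the parent gene that short reads map to both.

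The deposited values are log2 RPM, where RPM is the number of reads out of every 1000000 in a library. The listed genes held between 26801865 and 66849394 reads, which was 53.1% to 68.9% of the totals used for scaling, and 1 RPM stood for between 50.5 and 97.0 reads. The 2 tables were scaled separately, so levels set side by side across lines are a description. Below, levels of a line are given as wild type against knockout. Zfp57 itself was 135 against 51.8 RPM in E14 and 796 against 42.9 RPM in JB1. All 8 embryonic stem cell markers were at 1 RPM or more in every library. Their summed level was lower in both knockout libraries, at 2263 against 1875 RPM in E14 and 3639 against 2737 RPM in JB1. Each of them was lower in the E14 knockout. The JB1 markers did not all go the same way. Utf1 was 61.4 against 170 RPM there and Pou5f1 925 against 940 RPM, while the others were lower in the knockout. Nanog was 228 against 137 RPM in E14 and 693 against 362 RPM in JB1. The summed levels of fibroblast and muscle markers were low and higher in both knockout libraries. The 7 fibroblast markers summed to 1.60 against 2.15 RPM in E14 and 7.62 against 13.5 RPM in JB1, with Dcn at 0 in each library. Most of the JB1 sum was Thy1, at 3.61 against 7.95 RPM, and Col1a1, at 3.67 against 5.19 RPM. Col1a2 was 0.332 against 0.309 RPM there. The 4 muscle markers summed to 7.43 against 10.7 RPM in E14 and 5.16 against 11.0 RPM in JB1. Most of these sums was Acta1, at 6.68 against 9.38 RPM in E14 and 3.93 against 9.05 RPM in JB1. Tnnt2 was 0.491 against 0.474 RPM in JB1. The 4 primitive endoderm markers summed to 6.91 against 4.82 RPM in E14 and to 28.4 against 36.2 RPM in JB1. Most of the JB1 sum was Dab2, at 20.2 against 29.6 RPM. Gata4 went the other way there, at 6.10 against 2.97 RPM. The part of these shifts in the results below was not tested. Differences below are log2((knockout RPM + 1)/(wild-type RPM + 1)) within a line. Folds are ratios of RPM with exact 95% intervals that cover counting error only. With 1 library per group there was no test within a line, and in bulk RNA fewer cells of a type and less RNA per cell cannot be told apart.

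Rpl39l, the paralog of the exit tunnel protein gene Rpl39, was the member with the largest difference, and it was higher in both knockout libraries. No other member differed 2-fold in either line. The common genes differed by small amounts, and with opposite signs in the 2 lines: most were slightly higher in the E14 knockout and slightly lower in the JB1 knockout. In E14 63 of the 75 common genes were higher in the knockout library, against 53.5% of the 12276 genes at 1 RPM or more in either E14 library. In JB1 48 of 75 were lower, against 48.5% of 13132 genes. The median difference of the common genes was 0.13 in E14 and −0.11 in JB1, beside medians of 0.02 in E14 and 0.02 in JB1 for genes that are no member.

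**Figure D1:**
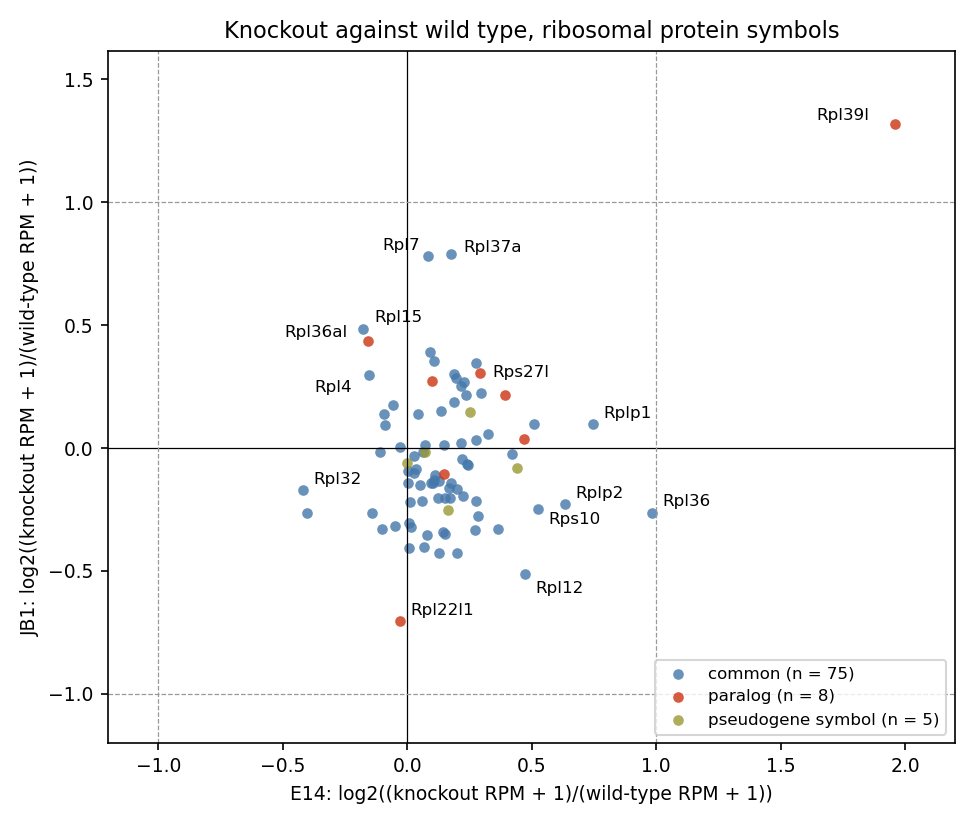
Difference between knockout and wild type on the log2(RPM + 1) scale in E14 (horizontal axis) and JB1 (vertical axis) for the common genes, the paralogs and the 5 pseudogene symbols at 1 RPM or more in any library. Each point is a gene, and dashed lines mark 2-fold. Rpl39l stands alone beyond 2-fold on both axes at 1.96 and 1.32, while the common genes lie within 2-fold and mostly right of the zero line for E14 and below that for JB1.

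The common genes took a similar share of each library. They held 7.40% of the listed reads in E14 wild type, with 8.01% in its knockout. The JB1 share was 8.07% in wild type and 7.77% in its knockout. The share was thus higher in the E14 knockout and lower in the JB1 knockout. The spread of levels within a library was wide. In E14 wild type the common genes ran from 36.1 to 1124 RPM with a median of 487 RPM, and in JB1 wild type from 187 to 2156 RPM with a median of 672 RPM.

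Per kilobase of exon, the highest common gene in E14 wild type was Rps3a, a small subunit protein gene, at 1151 RPM per kb. Rpl23a, whose protein sits near the exit of the peptide tunnel, followed at 774 RPM per kb. Also among the 5 highest were Rpl32 at 635 RPM per kb and Rplp0 at 603 RPM per kb. The lowest were Rps16 at 28.5, Rpl29 at 54.7 and Rpl18 at 82.2 RPM per kb, just under Rps15a and Rpl22, which were both at 86.5 RPM per kb. In JB1 wild type Rplp1 was highest at 1732 RPM per kb and Rps15a lowest at 89.6 RPM per kb. With the length of the longest transcript in place of all exons, 2 of the 5 highest in E14 wild type stayed among the 5 highest, and all 5 of the lowest stayed.

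Among the large subunit genes without the P stalk, 33 of 42 were higher in the E14 knockout and 23 of 42 were lower in the JB1 knockout. Their medians were 0.14 in E14 and −0.05 in JB1. Of all measured genes 53.5% were higher in the E14 knockout and 48.5% lower in the JB1 knockout, so the JB1 count of these genes was near that share. None was past 2-fold, in a background where 0.953% of genes were at least 2-fold higher in E14 and 0.269% lower, and where 2.5% were higher and 1.58% lower in JB1.

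Rpl36, a large subunit protein gene, came closest to 2-fold among the common genes. It was 129 against 256 RPM in E14, a ratio of 1.98 (95% interval 1.93 to 2.04). Its JB1 levels were 291 against 243 RPM, 1.20-fold lower (1.18 to 1.22). In RPM the E14 wild-type library was the lowest of the 4, but the lines were scaled separately. Over genes that are no member, the ratio of JB1 to E14 wild type had a median of 1.43. Which library stands apart can therefore not be told from these levels. In E14 Rpl36 ranked 125th of 12276 genes from the highest log2 difference. Its transcript shares 81.1% of its 50-base words with transcripts of other genes in the reference, and how reads of such stretches were counted is not given in the sources used here.

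Rpl29 was 61.6 against 88.0 RPM in E14, and 193 against 207 RPM in JB1. Both knockout libraries were above their wild type, with a log2 difference of 0.51 in E14 and 0.10 in JB1. Rpl32 was the lowest of the common genes in E14. It was 612 against 457 RPM there, and 720 against 639 RPM in JB1. Rpl32 lies on chromosome 6, where the 546 measured genes that are no member had a median of −0.28 in E14, beside −0.42 for Rpl32. In JB1 the median of that chromosome was 0.06. Rpl28 was also lower in both knockout libraries, at 231 against 209 RPM in E14 and 469 against 391 RPM in JB1.

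Rpl37a and Rpl7 led the common genes in JB1. Rpl37a, which binds zinc in the large subunit, was 288 against 498 RPM in JB1, a ratio of 1.73 (95% interval 1.70 to 1.76). It was 319 against 360 RPM in E14. In RPM the JB1 knockout library was the highest, though the lines were scaled separately. Rpl7 was 809 against 1391 RPM in JB1, a ratio of 1.72 (1.70 to 1.74), and 597 against 633 RPM in E14. These ranked 622nd and 642nd from the top among 13132 genes in JB1.

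Others were higher in the JB1 knockout by less. Rpl7a was 698 against 914 RPM in JB1 and 647 against 690 RPM in E14. Rpl10, whose protein joins the large subunit late in its assembly, near the catalytic centre, was 711 against 908 RPM in JB1 and 662 against 713 RPM in E14. Both genes were higher in both knockout libraries. Rpl15 and Rpl4 had opposite signs. Rpl15 was 526 against 736 RPM in JB1 and 459 against 407 RPM in E14. Rpl4, a long protein that reaches into the exit tunnel, was 1622 against 1991 RPM in JB1 and 1124 against 1010 RPM in E14.

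Rpl12, whose protein forms the base of the stalk together with the stalk protein P0, was the lowest common gene in JB1 and among the higher ones in E14. JB1 gave 1668 against 1168 RPM, 1.43-fold lower (95% interval 1.42 to 1.44). E14 gave 965 against 1340 RPM, a ratio of 1.39 (1.37 to 1.40). On the log2 scale this was −0.51 in JB1 and 0.47 in E14. Rpl23, which binds the p53 regulator MDM2 when it is free of the ribosome, was 1011 against 761 RPM in JB1 and 687 against 690 RPM in E14. Rpl34 was 391 against 295 RPM in JB1 and 374 against 392 RPM in E14. In E14 both were nearly level, and Rpl23 took the other sign under 3 other scalings there.

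The P stalk, a flexible arm of the large subunit that recruits translation factors, is made of the proteins of Rplp0, Rplp1 and Rplp2. All 3 were higher in the E14 knockout, with a median of 0.64. Rplp1 was 298 against 501 RPM in E14, a ratio of 1.68 (95% interval 1.65 to 1.71). Rplp2 was 187 against 291 RPM, a ratio of 1.56 (1.52 to 1.59), and Rplp0 was 1000 against 1212 RPM, a ratio of 1.21. In JB1 the 3 stayed within a log2 difference of 0.23 of level. Rplp1 was 864 against 925 RPM, Rplp2 681 against 582 RPM, and Rplp0 1770 against 1809 RPM. The levels of Rplp1 and Rplp2 in both JB1 libraries were above those in both E14 libraries.

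The small subunit genes showed the opposite signs most evenly. In E14 27 of 30 were higher in the knockout library, beside 53.5% of all measured genes, with a median of 0.11. In JB1 24 of 30 were lower, beside 48.5% of all measured genes, with a median of −0.14. The highest in E14 was Rps10, at 228 against 329 RPM, a ratio of 1.44 (95% interval 1.41 to 1.47). It was 574 against 483 RPM in JB1, lower in the knockout. The lowest in JB1 were Rps19 and Rps26, both known in humans from Diamond-Blackfan anemia. Rps19 was 734 against 545 RPM in JB1, 1.35-fold lower (1.33 to 1.37), and 532 against 582 RPM in E14. Rps26 was 305 against 226 RPM in JB1 and 228 against 262 RPM in E14.

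Other small subunit genes lay near level. Rps3a was 1124 against 1216 RPM in E14 and 1373 against 1271 RPM in JB1. Rps15a was 542 against 543 RPM in E14 and 562 against 509 RPM in JB1. Neither differed by as much as 0.15 on the log2 scale in either line.

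Read counts behind these genes were high, with at least 1821 reads for a common gene in an E14 library and at least 12920 in a JB1 library. In E14 57 of the 75 common genes had a counting interval wholly above 1 and 12 wholly below 1. Over all genes measured in E14, 32.6% and 25.8% did so. In JB1 24 were above and 47 below, beside 40.4% and 37.8% of all genes. Such intervals say nothing of the spread between cultures, which 1 library per group cannot show.

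Across the common genes the differences of the 2 lines showed no relation. Of the 75, 21 were higher in both knockout libraries, 6 were lower in both, 42 were higher in E14 and lower in JB1, and 6 the reverse. The counts of each line, 63 higher in E14 and 48 lower in JB1, already make the group of 42 the largest. The same split over all genes was not computed. Pearson's r between the differences of the 2 lines was −0.04 and Spearman's rho 0.02 across the 75 genes, which share their libraries and are not independent. In E14 the difference also went with base composition across the 75 genes, with a Pearson's r of 0.37 between transcript GC content and log2 difference, and of −0.20 in JB1.

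Transcript length moved with the differences in both lines. Among genes that are no member, those with a transcript under 1 kb had a median of 0.19 in E14 and 0.18 in JB1. Those over 4 kb had medians of −0.04 in E14 and −0.10 in JB1. Of the 75 common genes, 44 have a transcript under 1 kb and 25 one of 1 to 2 kb. Their E14 median of 0.13 lay between the medians of those length classes, 0.19 and 0.11, and their JB1 median of −0.11 lay below both, 0.18 and 0.11. The replication-dependent histone genes, whose transcripts are short and mostly lack a poly(A) tail, were higher in the E14 knockout in 65 of 65 measured genes with a median of 1.55. In JB1 only 6 were measured, with a median of −0.49. The length classes above include these histone genes, and their medians without histone genes were not computed. The part of transcript length and of RNA selection in these differences was not tested.

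**Figure D2:**
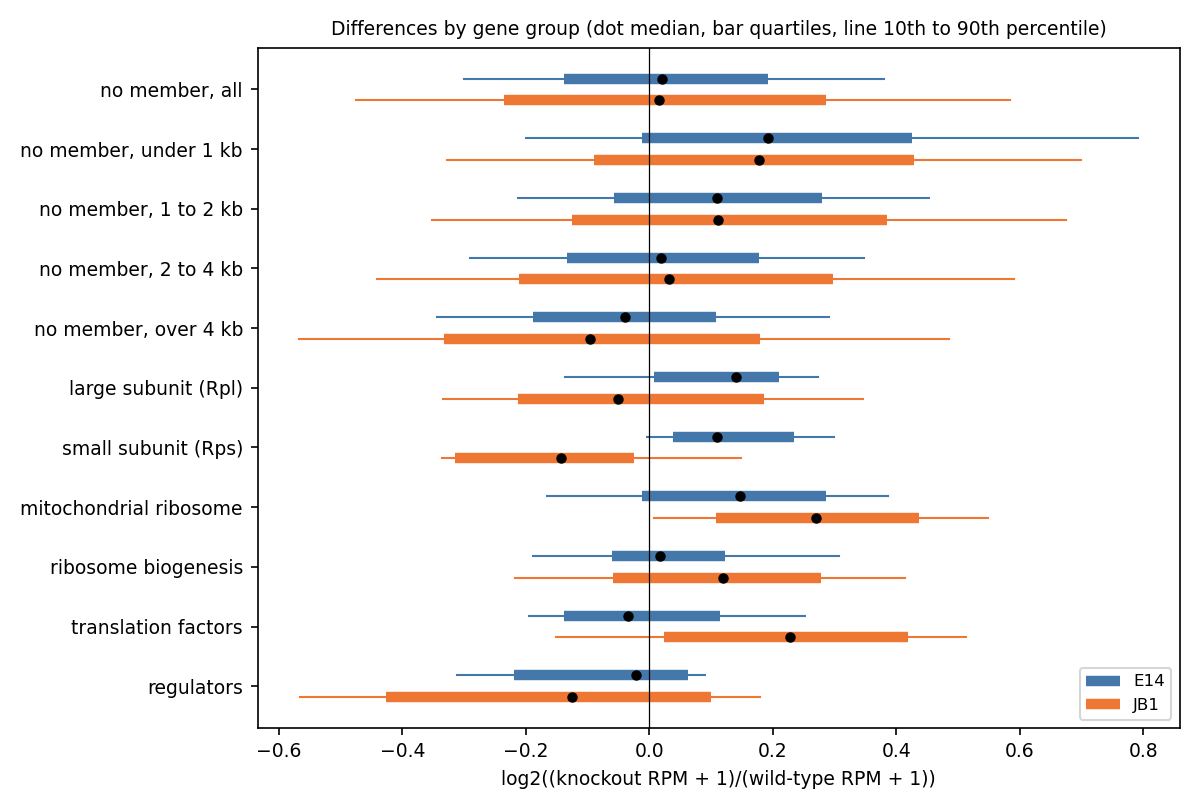
Differences between knockout and wild type (log2((knockout RPM + 1)/(wild-type RPM + 1))) by gene group, with the median as a dot, quartiles as a bar and the 10th to 90th percentile as a line, E14 in blue and JB1 in orange. Genes that are no member shift from a median of 0.19 in E14 and 0.18 in JB1 for short transcripts to below 0 for transcripts over 4 kb. The medians of the large and small subunit genes lie right of 0 in E14 and left of 0 in JB1. The JB1 quartiles of the large subunit, −0.21 and 0.19, lie on either side of 0. The medians of the mitochondrial ribosomal protein genes lie right of 0 in both lines.

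Other genes of ribosome production were read from lists. Some ribosomal protein genes have symbols outside the rule, and those given here are Rpsa, Gnb2l1 and Fau. Rpsa was 1285 against 1421 RPM in E14 and 2015 against 1656 RPM in JB1. Gnb2l1, the older symbol of the scaffold gene Rack1, was 1022 against 1093 RPM in E14 and 1368 against 1194 RPM in JB1. Fau was 154 against 167 RPM in E14 and 247 against 246 RPM in JB1. Each of these genes was higher in the E14 knockout and lower in the JB1 knockout, as were the medians of the common genes.

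The mitochondrial ribosomal protein genes, which serve the separate ribosome of that organelle, had medians above 0 in both lines. In E14 56 of 76 measured genes were higher in the knockout, beside 53.5% of all genes. Their E14 median was 0.15, close to the common genes. In JB1 68 of 76 were higher, beside 51.5% of all genes. Their JB1 median was 0.27, where the common genes had −0.11. In JB1 Mrpl13 was among the highest at 25.8 against 45.1 RPM, and Mrps14 was the lowest at 84.6 against 57.3 RPM. In E14 Mrpl34 was the highest at 5.90 against 11.5 RPM.

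Ribosome biogenesis genes had medians of 0.02 over 43 genes in E14 and 0.12 in JB1. Lyar, a nucleolar protein gene, was 40.1 against 54.8 RPM in E14 and 65.5 against 114 RPM in JB1. Bop1, which acts in large subunit maturation, was 32.0 against 36.8 RPM in E14 and 57.5 against 94.8 RPM in JB1. Nop58, a core protein of the particles that guide rRNA methylation, was 374 against 418 RPM in E14 and 842 against 617 RPM in JB1. Translation factors and other mRNAs with the pyrimidine tract had medians of −0.03 over 21 genes in E14 and 0.23 in JB1, so that in JB1 they lay on the other side of 0 from the common ribosomal protein genes. Tpt1 was the lowest of them in both lines, at 715 against 455 RPM in E14 and 1591 against 1183 RPM in JB1, and Eef1d the highest, at 121 against 163 RPM in E14 and 138 against 270 RPM in JB1.

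The regulators of ribosomal protein synthesis had medians of −0.02 over 17 genes in E14 and −0.13 in JB1. Myc was 3.31 against 2.70 RPM in E14 and 12.0 against 23.7 RPM in JB1. Mycn was 30.1 against 23.7 RPM in E14 and 95.0 against 64.5 RPM in JB1. The sign of Myc was opposite between the lines and that of Mycn was the same. Trp53 was 80.5 against 65.3 RPM in E14 and 477 against 317 RPM in JB1, and its inhibitor Mdm2 was 271 against 294 RPM in E14 and 185 against 104 RPM in JB1.

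Rpl39l (chr16:10170319-10175004, plus strand, mm9) stood out among the paralogs and among all members. Its E14 levels were 5.96 RPM in wild type (301 reads) against 26.1 RPM in the knockout (1845 reads). Its JB1 levels were 18.5 RPM in wild type (1283 reads) against 47.7 RPM in the knockout (4625 reads). The knockout library was the higher one in each line, and the E14 knockout was also above JB1 wild type. The ratio was 4.38 in E14 (95% interval 3.87 to 4.96) and 2.57 in JB1 (2.42 to 2.74), or 1.96 and 1.32 on the log2 scale. Its log2 difference was the 18th highest of 12276 genes in E14 and the 138th highest of 13132 in JB1. Over the 11890 genes measured in both lines, 5 were at least 2-fold higher in both knockout libraries, and they were BC051077, Fam25c, Id1, Rpl39l and Slc16a3.

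The common partner, Rpl39, did not show this. It was 290 against 323 RPM in E14 and 292 against 254 RPM in JB1. Rpl39l therefore made up 2.01% of the reads of the pair in E14 wild type (exact 95% interval 1.79 to 2.25) and 7.48% in the E14 knockout (7.16 to 7.82). The JB1 shares were 5.96% in wild type (5.65 to 6.29) and 15.8% in its knockout (15.4 to 16.2). Per kilobase of exon these shares were 3.42% and 12.2% in E14 and 9.86% and 24.5% in JB1. Both knockout libraries held a larger share of the paralog on either measure.

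A genotype effect common to the lines was tested with limma on log2(RPM + 1) in all 4 libraries, with cell line and genotype as terms. The 2 lines were the only replication of the genotype. No gene was called at an adjusted p under 0.05, 0.0% of 12644 genes, and 1005 genes had an unadjusted p under 0.05. Of the 86 members tested, 0 were called and 1, Rpl39l, had an unadjusted p under 0.05. Its shared log2 difference was 1.64 (SE 0.207), with an unadjusted limma p of 0.000171, the smallest of all genes, and an adjusted p of 0.623. It was higher in 2 of 2 knockout libraries, but the difference fails the correction over all genes. Under the 7 other settings of this fit its adjusted p was between 0.563 and 0.667. The lines themselves differed by 0.64 on the log2 scale in the size of the difference.

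Rpl39 and Rpl39l are printed here because their reads have to be told apart for these values to hold. The coding sequences below are from GENCODE M21 (GRCm38), without the stop codon and on the coding strand, with capitals where the 2 differ.
Rpl39: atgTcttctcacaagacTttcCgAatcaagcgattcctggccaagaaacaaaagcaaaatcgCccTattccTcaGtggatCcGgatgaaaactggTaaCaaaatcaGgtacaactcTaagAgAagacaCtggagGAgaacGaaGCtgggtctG
Rpl39l: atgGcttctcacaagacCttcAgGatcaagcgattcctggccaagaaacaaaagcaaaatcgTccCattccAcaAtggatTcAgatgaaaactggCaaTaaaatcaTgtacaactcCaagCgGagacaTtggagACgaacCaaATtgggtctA
The 2 sequences have 153 bases each and differ at 23, an identity of 85.0%, yet only 3 of 51 codons code for another amino acid. Most differences are therefore silent, and the longest run of bases they share is 38. Rpl39 has 3 coding exons on the minus strand of the X chromosome, between 37082704 and 37085127 (GRCm38). Rpl39l has 1 coding exon, on the plus strand of chromosome 16 between 10174310 and 10174462 (GRCm38). No 50-base word of the Rpl39l transcript occurs in the transcript of any other gene of the reference, Rpl39 included.

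The neighbours of Rpl39l at 1 RPM or more did not show the same size of difference. Atf7ip2, whose start lies 17801 bases beyond the end of Rpl39l, was 13.3 against 14.7 RPM in E14 and 12.6 against 18.2 RPM in JB1. Emp2 was 1.47 against 1.68 RPM in E14 and 3.77 against 3.74 RPM in JB1. Tekt5 and Grin2a were under 1 RPM in every library. Tekt5 was 0 against 0.0566 RPM in E14 and 0.217 against 0.515 RPM in JB1, higher in both knockout libraries. Grin2a was 0.277 against 0.0849 RPM in E14 and 0.1445 against 0.237 RPM in JB1. The added 1 RPM keeps log2 differences small at such levels. Neither Atf7ip2 nor Emp2 came near the size of difference of Rpl39l, with Atf7ip2 at log2 differences of 0.13 in E14 and 0.50 in JB1.

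The 100 bases before the start of each gene of the pair are shown for their base composition, from RefSeq (GRCm38.p6), on the strand of the gene and with each CG in capitals.
Rpl39l: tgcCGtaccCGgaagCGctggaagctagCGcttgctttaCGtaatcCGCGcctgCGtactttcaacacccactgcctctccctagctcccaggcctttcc
Rpl39: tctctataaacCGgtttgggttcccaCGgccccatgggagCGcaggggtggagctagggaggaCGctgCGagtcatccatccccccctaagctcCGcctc
The stretch of Rpl39l, at chr16:10170128-10170227, holds 8 CG and that of Rpl39, at chrX:37085223-37085322, holds 6. Over the whole 300-base windows, from 250 bases before to 50 bases after the start, both genes have 17 CG, against a median of 21 in 65 windows of 55 common genes and of 7 in 32776 windows of genes that are no member. The letters CCGGAAG, which ETS factors such as GABP bind, are in the windows of both genes on one strand or the other. They are in 35.4% of the common gene windows and 8.80% of the windows of other genes. AAGATGG, the core of YY1 sites, is in 16.9% and 6.32%, CTTTCC, a pyrimidine tract, in 47.7% and 26.5%, and TATAAA in 9.23% and 13.6%. The windows matched 62 members by symbol, 55 common genes and 7 paralogs, and a match of letters is a description and not a binding site.

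**Figure D3:**
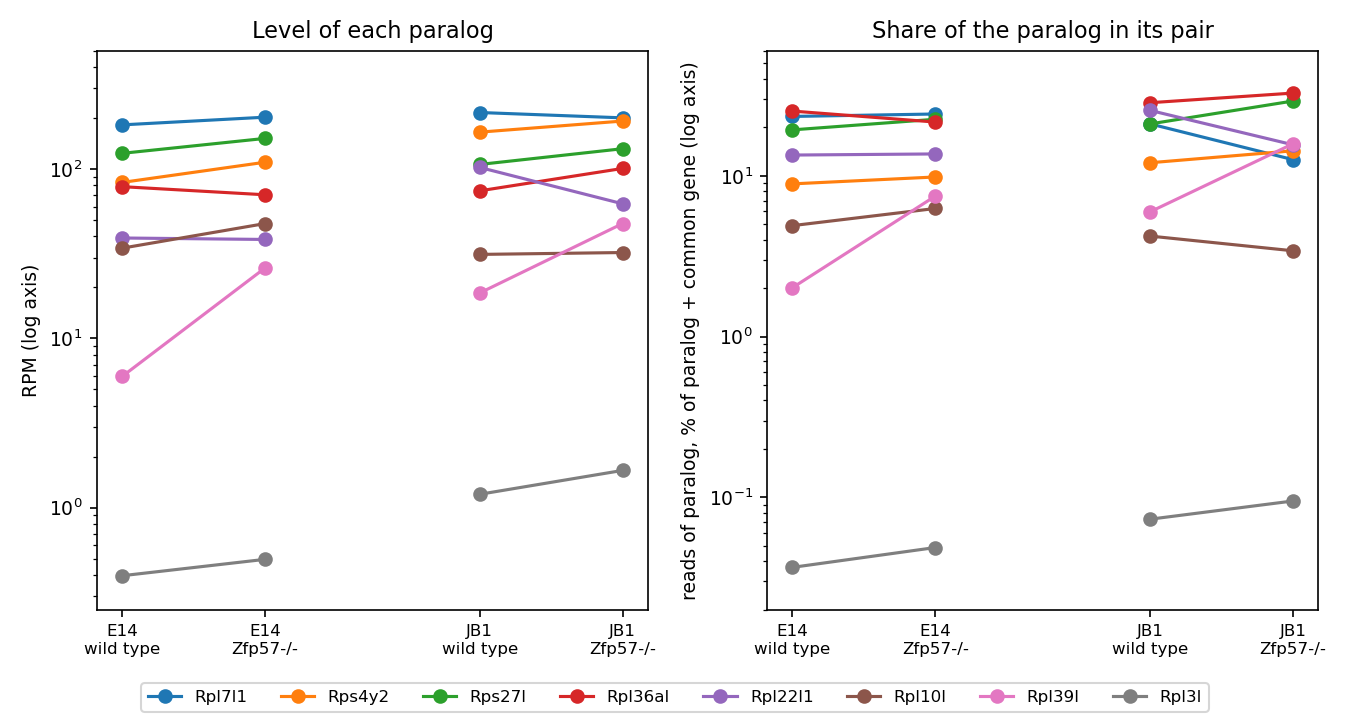
Level of the 8 paralogs in RPM (left, log axis) and share of each paralog in the reads of the paralog and its common gene in percent (right, log axis), in the 4 libraries, with lines joining wild type and knockout of a line. Rpl39l is higher in the knockout of both lines, from 5.96 to 26.1 RPM in E14 and from 18.5 to 47.7 RPM in JB1, while Rpl3l stays near 1 RPM and the other paralogs lie between 31.3 and 216 RPM.

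The other paralogs did not differ 2-fold. Rpl22l1, the partner of the RNA-binding protein gene Rpl22, was 39.2 against 38.4 RPM in E14 and 102 against 62.3 RPM in JB1. It was level in E14 and 1.64-fold lower in the JB1 knockout (95% interval 1.58 to 1.70), with a log2 difference of −0.71 that was the lowest of all members in JB1. Rpl22 itself was 252 against 242 RPM in E14 and 298 against 337 RPM in JB1. The share of Rpl22l1 in the pair was 13.5% and 13.7% in E14 and 25.5% and 15.6% in JB1, so JB1 wild type was the library with the high share. The Rpl22l1 transcript shares 65.6% of its 50-base words with other genes, though none with Rpl22.

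Rps27l, a paralog of Rps27 that is known as a target of p53, was higher in both knockout libraries. It was 124 against 152 RPM in E14, a ratio of 1.23 (95% interval 1.19 to 1.26), and 106 against 132 RPM in JB1, a ratio of 1.24 (1.20 to 1.28). Rps27 was 518 against 523 RPM in E14 and 400 against 320 RPM in JB1. The share of Rps27l in the pair was 19.3% and 22.5% in E14 and 21.0% and 29.2% in JB1. The shared log2 difference of Rps27l was 0.30 (SE 0.150), with a limma adjusted p of 0.637.

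Rps4y2, which RefSeq lists as Rps4l and which is a paralog of Rps4x, was 83.4 against 110 RPM in E14 and 165 against 192 RPM in JB1. It was higher in both knockout libraries, at ratios of 1.32 and 1.16. On chromosome 6, where Rps4y2 lies, the measured genes that are no member had a median of −0.28 in E14, beside 0.39 for Rps4y2. In JB1 that median was 0.06, beside 0.22 for Rps4y2. Rps4y2 overlaps Tmtc1 on the opposite strand. Rpl36al was 78.7 against 70.5 RPM in E14 and 74.4 against 101 RPM in JB1, with opposite signs in the lines. Its partner Rpl36a was 233 against 256 RPM in E14 and 187 against 208 RPM in JB1. Rpl7l1 was 182 against 203 RPM in E14 and 216 against 201 RPM in JB1, also with opposite signs. Its share in the pair with Rpl7 was 21.1% against 12.6% in JB1, as Rpl7 was higher there.

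Rpl10l, the autosomal copy of the X-linked Rpl10 that mouse spermatocytes depend on, was present at a low level in all 4 libraries. It was 34.1 against 47.7 RPM in E14, a ratio of 1.40 (95% interval 1.32 to 1.48), and 31.3 against 32.1 RPM in JB1, a ratio of 1.03 (0.971 to 1.08). Its share of the pair was 4.90% and 6.26% in E14 and 4.22% and 3.42% in JB1. The share was higher in the E14 knockout and lower in the JB1 knockout. The 5 male germ cell markers summed to 74.1 against 70.2 RPM in E14 and to 137 against 103 RPM in JB1, and Prm1 and Acrv1 had 0 reads in each library. The other 3 did not move together in E14. Dazl was 10.6 against 22.1 RPM and Ddx4 13.9 against 17.4 RPM there, both higher in the knockout as Rpl39l and Rpl10l were, while Sycp3 was 49.6 against 30.7 RPM. In JB1 all 3 were lower in the knockout, with Ddx4 at 60.6 against 37.1 RPM. The part of germ cell genes in the levels of these paralogs was not tested.

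Rpl3l, the paralog of Rpl3 in muscle, was close to the limit of what was measured. It had 20 and 35 reads in E14, at 0.396 against 0.495 RPM, and 83 and 161 reads in JB1, at 1.20 against 1.66 RPM. The ratio was 1.25 in E14 with an interval of 0.702 to 2.28 that includes 1, and 1.38 in JB1 (1.06 to 1.83). It was at most 0.0948% of the reads of the pair with Rpl3. A difference in E14 was not detectable at this depth. No paralog transcript shares a 50-base word with that of its own common gene.

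Pseudogene symbols held little. Of the 55, 50 were under 1 RPM in all 4 libraries and 16 had 0 reads in all 4. The number with any read was 16 in E14 wild type and 17 in the E14 knockout, and 33 and 38 in the same order in JB1. In 21 symbols both E14 libraries had 0 reads and a JB1 library had some, and in 1 it was the reverse. Among the 21, 3 had at least 20 reads in both JB1 libraries, and these were named after their values were seen. Rpl13-ps3 had 93 and 121 reads, Rps26-ps1 53 and 43 reads, and Rps12-ps2 42 and 42 reads in JB1 wild type and knockout. For a count of 0 the level may be as high as 0.0594 RPM in wild-type E14 and 0.0424 RPM in its knockout, taking 3 reads as the limit, and Rpl13-ps3 was 1.34 against 1.25 RPM in JB1.

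The 3 highest pseudogene symbols were at levels near those of the low paralogs. Rplp2-ps1 was 53.1 against 72.3 RPM in E14 and 50.6 against 47.7 RPM in JB1. Its signs followed those of Rplp2, and it had no transcript in the reference for a comparison of sequence. Rps2-ps6 was 45.4 against 51.0 RPM in E14 and 38.3 against 32.0 RPM in JB1, and 89.1% of its 50-base words occur in other genes. It lies in a stretch of chromosome 14, between 41 and 77 Mb (mm9) and chosen after its values were seen, where 230 genes that are no member had a median of −0.63 in E14, while Rps2-ps6 had 0.16. Rps13-ps1 was 33.9 against 40.6 RPM in E14 and 10.6 against 11.9 RPM in JB1, and shares 82.8% of its 50-base words with Rps13, which was 346 against 434 RPM in E14 and 443 against 461 RPM in JB1. Rpl9-ps6 was 1.45 against 1.57 RPM in E14 and 0.231 against 0.217 RPM in JB1. Reads of these symbols could come from the parent genes in part, which was not tested.

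Shared sequence was not limited to pseudogenes. The median share of 50-base words that also occur in transcripts of other genes was 49.3% for the common genes, 11.4% for the paralogs and 54.1% for the 52 pseudogene symbols with a transcript. In position, 18 common genes overlap another listed gene, and the strand setting of the counting is not given in the sources used here. In the 39 common genes that share under 50% of their words the median difference was 0.13 in E14 and −0.14 in JB1. In the 57 common genes that overlap no listed gene it was 0.13 in E14 and −0.10 in JB1. Rps19bp1, whose protein binds RPS19, was 10.8 against 11.1 RPM in E14 and 17.0 against 17.2 RPM in JB1, level in both lines.

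The wild-type libraries of the 2 lines were read side by side, without a test, since the tables were scaled separately and the listed genes took a larger part of the total in JB1. The ratio of JB1 to E14 wild type had a median of 1.34 over the common genes, with quartiles of 1.13 and 1.56. Over 11405 genes that are no member it had a median of 1.43. Rps16 stood apart. It was 36.1 against 39.0 RPM in E14 and 506 against 461 RPM in JB1, a wild-type ratio of 14.02, and 7 of the 11405 other genes had a ratio at least as high. Both E14 libraries were low and both JB1 libraries were high, so the gap lay between lines and not between genotypes.

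Rps16 is on chromosome 7 (29135671 to 29137715, plus strand, mm9), and none of its 6 nearest neighbours showed a gap of that size. Plekhg2 came nearest, at 2.18 RPM in wild-type E14 and 9.49 RPM in wild-type JB1. Supt5h was 168 RPM in wild-type E14 and 221 RPM in JB1, and Med29 was 9.55 and 9.87 RPM in the same libraries. The common gene with the next highest ratio was Rplp2 at 3.64, followed by Rpl29 at 3.14, Rps2 at 3.01 and Rplp1 at 2.90, and Rps2 is named for this ratio. Of the paralogs, Rpl39l had a ratio of 3.11, Rpl22l1 of 2.61 and Rps4y2 of 1.98. Rps27l and Rpl10l were lower in JB1 wild type, at ratios of 0.860 and 0.918.

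**Figure D4:**
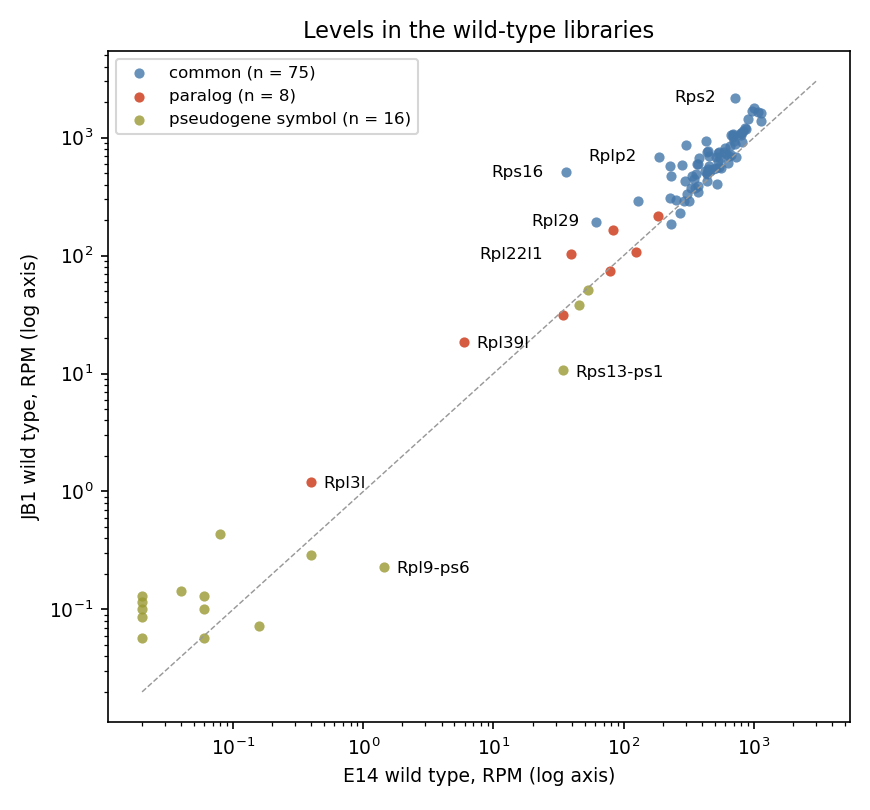
Level of the members in E14 wild type (horizontal axis) and JB1 wild type (vertical axis), in RPM on log axes, for genes with reads in both, with the line of equal values dashed. Among the common genes Rps16 lies farthest above the line, at 36.1 RPM in E14 against 506 RPM in JB1, and Rps13-ps1 and Rpl9-ps6 lie below the line.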

How the data were processed

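RNA was measured in 4 libraries of mouse embryonic stem cells, grouped by their titles, with 1 library per line and genotype and no replicates named. Libraries came from a stranded mRNA kit, per the labels' protocols. The submitters' processing notes list TopHat2 2.0.8b, CASAVA 1.8.2, cutadapt and the build mm9. No source used here gives the annotation, the counting tool, its strand setting or how reads with several positions were treated. The authors deposited log2 values of RPM, 1 table per line. Genes without reads stood at 0.9 of a read, and the other values gave whole reads within a relative tolerance of 0.0001.

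Members and gene lists were chosen with earlier results of these data known. Named were every paralog, every other member outside the common genes at 1 RPM or more in a library, and, of the common genes, the 5 highest and 5 lowest differences in each line and levels per kilobase in E14 wild type. Some genes that these rules name are not reported here. Genes from lists are taken from the 2 highest and 2 lowest of each line. Intervals are exact binomial (Clopper-Pearson) on recovered reads. They cover counting error only, because PCR copies were not told apart. The added 1 RPM understates differences of low genes. The shared effect was fitted with limma 3.58.1 in R 4.3.3 (terms for line and genotype, eBayes with trend, mean RPM of 1 or more, Benjamini-Hochberg over all genes). A gene has 1 residual degree of freedom there, beside 5.28 prior ones. The limma fit and the interval of the folds were tested on simulated data. Transcript length, GC content and shared 50-base words came from GENCODE M21 (GRCm38), matched by symbol because the build differs from that of the tables. Coordinates are mm9 unless given otherwise.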

Additional observations from a re-analysis of the deposited data

Results flagged for a closer look

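The results here are the median of the common genes and the named members with opposite signs in the 2 lines. Members are given only where the counting interval lay wholly on 1 side of a ratio of 1 in both lines. Other members with opposite signs are left out. Each result is given as the E14 log2 difference minus the JB1 one, as coded. The difference between the lines was not tested for any of them, since each line has 1 library per genotype.

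The median of the common genes differed by 0.24. Among large subunit genes higher in the E14 knockout and lower in the JB1 knockout, the gap was 1.25 for Rpl36, 0.99 for Rpl12, 0.47 for Rpl34 and 0.31 for Rpl23a. It was 0.86 for Rplp2 of the P stalk. Among small subunit genes it was 0.77 for Rps10, 0.63 for Rps26, 0.56 for Rps19, 0.24 for Rps16 and 0.22 for Rps3a. Genes lower in the E14 knockout and higher in the JB1 knockout had gaps of −0.66 for Rpl15, −0.45 for Rpl4, −0.23 for Rpl22 and −0.23 for Rpl18. Of the paralogs, Rpl36al had a gap of −0.59 and Rpl7l1 of 0.25. Of the pseudogene symbols, Rplp2-ps1 had a gap of 0.52 and Rps2-ps6 of 0.42.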

How the results depend on the processing

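The median difference of the common genes kept its sign in each line under every alternative run. With median-of-ratios scaling within each line it was 0.10 in E14 and −0.14 in JB1, and in the common genes sharing under 50% of their 50-base words with other genes, an alternative chosen after seeing the data, it was −0.14 in JB1. The number of common genes higher in the knockout was 63 in E14 and between 57 and 63 under other scalings, pseudocounts and filters, and 27 in JB1 and between 23 and 27. Without histone genes in the total, the common genes held 7.42% of reads in E14 wild type and 8.04% in the E14 knockout. Leaving out chromosome 6 or genes that overlap a listed gene, both also chosen after seeing the data, moved neither median by more than 0.02.

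The limma fit called no gene and no member under any of its 7 other settings, and between 799 and 1688 genes had an unadjusted p under 0.05 in them. All named members kept their side of 2-fold in each alternative in which they were measured. Rpl23 and Rps15a in E14 took the other sign under 3 scalings, and Rps19bp1 did so in JB1 under median-of-ratios scaling. With a pseudocount of 5 the difference of Rpl39l was 1.50 in E14 and 1.16 in JB1. No scaling moved the median of all genes by over 0.1.

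Leaving out either library of a line leaves the genotype without replication, so no fit with residual degrees of freedom was left. The limma fit pairs each knockout with the wild type of its line through the term for line, and the labels give no replicate numbers for another pairing. Depth limits low members: below about 1 RPM, as for Rpl3l in E14, intervals were wide. Without replicates, no value shows the spread between cultures.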
